A study of Mus musculus with 9 samples.

Results

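The 42 genes described here encode the machinery with which the endoplasmic reticulum (ER) takes in, folds and discards secreted and membrane proteins, together with the stress sensors that adjust it. They were chosen by gene symbol and sorted into 4 arms, namely 15 chaperones and folding enzymes, 9 genes of ER degradation, 8 stress sensors and genes of the PERK-ATF4 arm, and 10 genes of the translocon and signal peptidase. All 42 were among the 17846 genes listed for these livers, and all 42 were among the 13619 genes with enough reads to be tested. The rule itself used no measured value, but the list was put together when results of these data were known, so the counts below describe these genes and are not evidence that the pathway stands apart.

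Liver mRNA was sequenced from 9 wild-type (WT) male mice of the strain labelled C57/BL, with 1 library per mouse. Control mice ate a normal diet, NASH mice ate an atherogenic (Ath) diet with added cholesterol and cholate for 20 weeks, and NASH+Exercise mice ate the same diet for 20 weeks and ran on a treadmill in the last 8 of them, after 12 weeks of diet alone. Control and NASH mice stayed sedentary, and all mice were fasted before the liver was taken. There were 3 mice per group, known by number as Control 3, 4 and 29, NASH 5, 19 and 20, and NASH+Exercise 8, 18 and 22, and values per mouse are given in that order. No group ate the normal diet and trained, so an effect of training without the Ath diet was not measured, and the labels give no age.

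A hepatocyte secretes albumin, clotting factors and lipoproteins in bulk, and its ER is built for that load. When unfolded proteins accumulate, the sensors IRE1 (Ern1), ATF6 and PERK (Eif2ak3) are activated. IRE1 splices the mRNA of Xbp1 into that of an active transcription factor, cleaved ATF6 enters the nucleus, and both switch on chaperones and degradation genes, whereas PERK slows translation and favors synthesis of ATF4, which drives Ddit3 (CHOP) and Trib3. Counts per gene cannot separate spliced from unspliced Xbp1 mRNA, and neither cleavage of ATF6 nor phosphorylation of the sensors is seen in RNA.

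Cleaved ATF6, together with NF-Y, binds the ER stress element (ERSE), which reads CCAAT, any 9 bases and then CCACG, and which was searched on both strands of the 300 bases around each RefSeq start site (250 before and 50 after, GRCm38.p6). A promoter entry was available for 35 of the 42 genes and was lacking for Hyou1, Manf, Derl1, Atf6, Sec61a1, Ssr2 and Spcs3. The element was present in 9 of the 35 (25.7%), namely Hspa5, Hsp90b1, Calr, Canx, Pdia6, Dnajc3, Creld2, Derl3 and Syvn1, against 37 of all 27025 genes with an entry (0.137%). Hsp90b1 held 2 copies. The shorter ERSE-II, which reads ATTGG, any base and then CCACG, was present in Dnajb11 and Herpud1 (5.71% of the 35 against 0.0444% of all genes). The XBP1 type element TGACGTGG, which on the other strand begins with the CCACG that ends the ERSE, was in 0 of the 35 (0.714% of all genes), and the ATF4 type element TGATGNAA was in Herpud1 and Trib3 (5.71% against 4.51%). Sites of 5 genes whose levels are followed below, and the ERSE-II of Herpud1, are shown 5′ to 3′ on the strand that reads CCAAT or ATTGG first, with 10 bases on either side and the fixed bases of the element in capitals.
Hspa5, chr2:34772015-34772053, plus strand: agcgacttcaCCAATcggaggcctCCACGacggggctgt
Pdia6, chr12:17266481-17266519, plus strand: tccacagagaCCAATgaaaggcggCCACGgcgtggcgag
Creld2, chr15:88819510-88819548, minus strand: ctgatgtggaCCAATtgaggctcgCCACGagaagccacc
Derl3, chr10:75893232-75893270, minus strand: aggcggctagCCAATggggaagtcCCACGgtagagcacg
Syvn1, chr19:6046522-6046560, plus strand: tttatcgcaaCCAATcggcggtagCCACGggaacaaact
Herpud1, chr8:94386367-94386397, plus strand: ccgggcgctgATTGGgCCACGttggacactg
The ERSE lay at positions -65 to -47 from the start site in Hspa5, -98 to -80 in Pdia6, -126 to -108 in Creld2, -156 to -138 in Derl3 and -44 to -26 in Syvn1, and the ERSE-II of Herpud1 lay at -52 to -42. All 6 sites are upstream of the annotated start. A match describes these letters only, and binding was not measured.

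The total of estimated counts was 20086004 to 22495449 per mouse, and a member had between 9 counts (Derl3) and 30736 counts (P4hb) in a mouse. Levels are given as CPM, counts brought to a common library total, after scaling by the trimmed mean of M values (TMM). The TMM factor was highest in NASH (1.09 to 1.23), and it was 0.8 to 0.976 for Control mice and 0.912 to 1.08 for trained mice. This choice matters for the absolute direction of a change. Scaling by library size alone moved the median log2 difference over all genes from 0.01 to 0.36 in NASH against Control and from -0.03 to -0.23 in NASH+Exercise against NASH, whereas the distance of an arm from that median hardly moved. Every test was the quasi-likelihood test of edgeR, adjusted over the 13619 genes by the method of Benjamini and Hochberg, and a gene is said to have risen or fallen where the adjusted p was under 0.05. The comparisons share mice, since NASH stands in 2 of them and Control in 2, so their results are not independent of each other.

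On CPM after TMM, single mice stood apart within their groups. Control 4 had the highest level of its group for 30 of the 42 members, and NASH 20 had the lowest of its group for 33. In NASH+Exercise, mouse 22 was the highest for 23 members. The same counts over all genes were not made. This order depended on the scaling, and Control 4 had the lowest TMM factor (0.8). On TPM, a scale corrected for length, the 42 members summed to 3990 in Control 4 and 3950 in Control 29. The sum was 6610 in NASH+Exercise 8 and 6230 in NASH+Exercise 22, and NASH 20 stayed the lowest of its group (4790). Without Control 4, Pdia6, Derl3, Edem2, Xbp1, Atf6b and Sec61g newly passed the test in NASH against Control and Eif2ak3 no longer did, and Hspa5, Pdia4, P4hb, Derl2 and Spcs2 newly passed in NASH+Exercise against Control and Ddit3 no longer did. Without NASH 20, Hspa5, Eif2ak3 and Syvn1 newly passed in NASH+Exercise against Control and Calr no longer did. Pdia6 and Derl3 passed in NASH+Exercise against NASH without Control 4.

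Reads of overlapping genes may enter some of these values, since the sources used here do not give whether counting used the strand. The exons of 6 members share bases with those of a protein-coding gene on the opposite strand, namely Pdia3 (Catsper2), Pdia6 (Atp6v1c2), Derl2 (Mis12), Syvn1 (Mrpl49), Ddit3 (Mars) and Spcs1 (Glt8d1). Those of Hsp90b1, Dnajb9, Manf, Eif2ak3 and Sec61a1 overlap noncoding or unclassified transcripts on that strand.

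**Figure D1:**
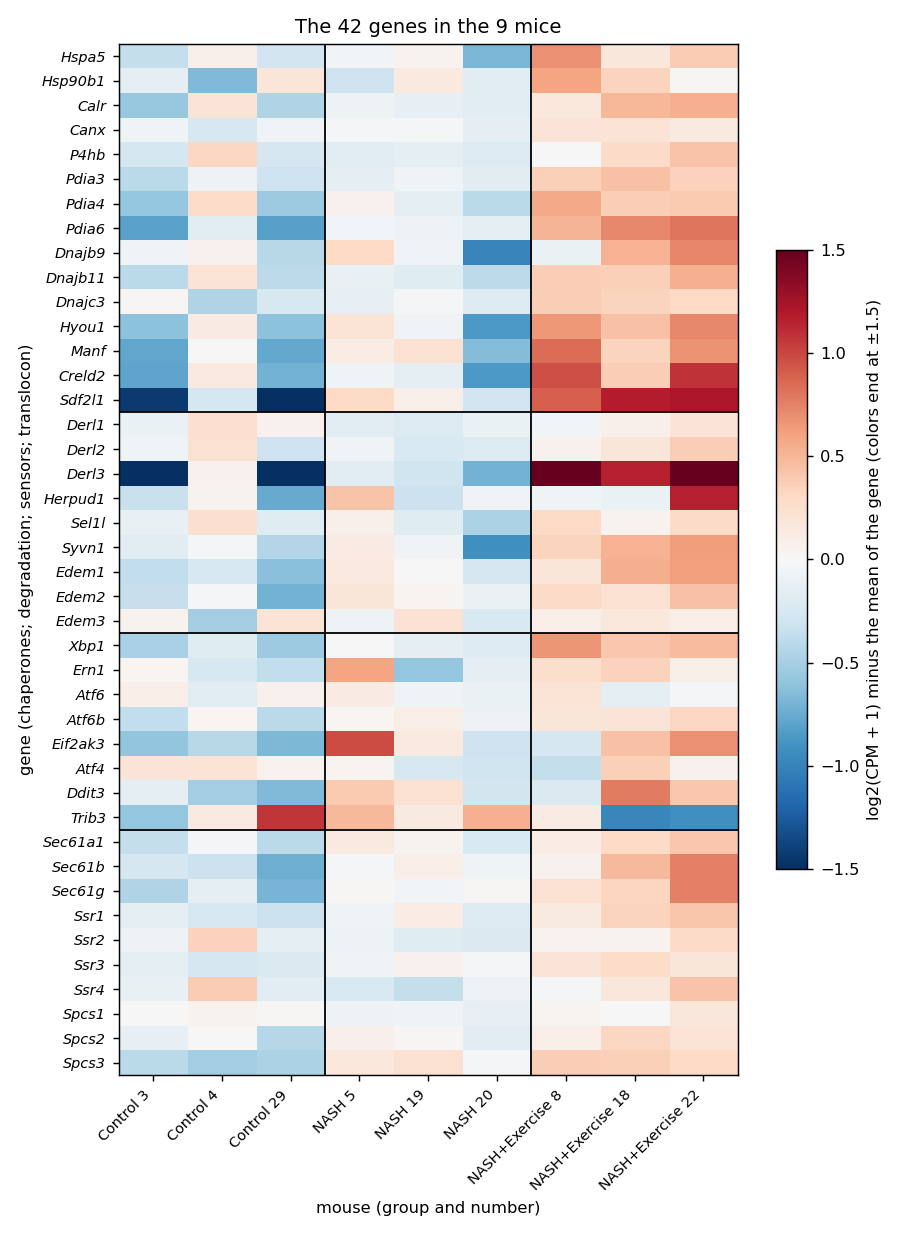
Level of each of the 42 genes (rows, by arm) in each of the 9 mice (columns, by group), as log2(CPM + 1) minus the mean of that gene over all mice, with colors ending at ±1.5. The NASH+Exercise columns are red for most chaperones, Control 4 is redder than the other Control mice, and NASH 20 is bluer than the other NASH mice.

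Whether the Ath diet alone was accompanied by a change in these genes is asked by NASH against Control. Only 3 of the 42 members rose (Sdf2l1, Eif2ak3 and Spcs3) and 0 fell, although 21.2% of all tested genes rose and 14.4% fell, so the members' share of called genes lay below the background on this scale. No member was lower at an unadjusted p under 0.05, where 19.9% of all genes were. DESeq2 called 3 members as higher and 0 as lower (18% and 14.6% of all genes). With library size alone 19 members rose, beside 33% of all genes, and on log2(TPM + 1) 24 rose, beside 37.0%, so how far these genes moved with the diet depended on the scaling. A positive difference was seen for 29 members after TMM, where 51.0% of all genes had one. On both of the other scales all 42 were positive. There the median over all genes was itself 0.36 with library size alone and 0.34 on log2(TPM + 1), so these counts largely follow the scaling. The median log2 difference was 0.12 over the members, 0.08 for chaperones, 0.04 for ER degradation, 0.24 for sensors and 0.20 for the translocon, beside 0.01 over all genes. In 6 members all NASH mice lay above all Control mice and in 2 below (27.4% and 22.2% of all genes). Past a 2-fold change only Sdf2l1 rose, where 15.3% of all genes did.

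In NASH+Exercise against NASH most of the 42 genes were higher after training, but no member passed the test across all genes. The median log2 difference was 0.60 for chaperones (0.48 without NASH 20), 0.39 for ER degradation, 0.21 for sensors and 0.29 for the translocon, beside -0.03 over all genes. The difference was positive for 40 of 42 members, against 45.1% of all genes. It stayed positive for 36 with library size alone and for 25 on log2(TPM + 1). On these 2 scales the median over all genes was -0.23 and -0.26. The 3 trained mice lay above the 3 NASH mice without overlap for 29 members and below for 1, where 9.16% and 14.9% of all genes did so. Adjusted p was under 0.05 for 0 members in edgeR's quasi-likelihood test, while an unadjusted p was under 0.05 for 22 members, all higher (4.6% of all genes), and the adjusted p was under 0.05 for 6 members in DESeq2 (Xbp1, Pdia6, Pdia3, Creld2, Dnajc3 and Dnajb11). Over all genes edgeR called 15 as higher and 7 as lower (0.11% and 0.0514%; 0.103% as higher past a 2-fold change), against 111 and 198 with DESeq2. A group of 3 against 3 cannot fall below p = 0.1 in an exact permutation test.

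NASH+Exercise against Control gave the most called members of the 3 comparisons and the highest median difference, although more members were without overlap against NASH (29) than against Control (26). Here 21 members rose and 0 fell, against 15.6% and 9.58% of all genes. At an unadjusted p under 0.05, 0 members were lower (15.6% of all genes). DESeq2 called 26 as higher and 0 as lower (13.9% and 9.94% of all genes). In the higher direction 26 members did not overlap and in the lower 0, against 21.5% and 17.0%. The median log2 difference was 0.57 over the members, beside 0.00 over all genes. With each of the 9 mice left out in turn, 11 of the 21 calls held every time, those of Pdia3, Pdia6, Dnajc3, Sdf2l1, Derl3, Edem1, Xbp1, Sec61b, Sec61g, Ssr1 and Spcs3. Past a 2-fold change, 5 members rose, namely Derl3, Sdf2l1, Creld2, Pdia6 and Manf, against 10.4% of all genes.

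**Figure D2:**
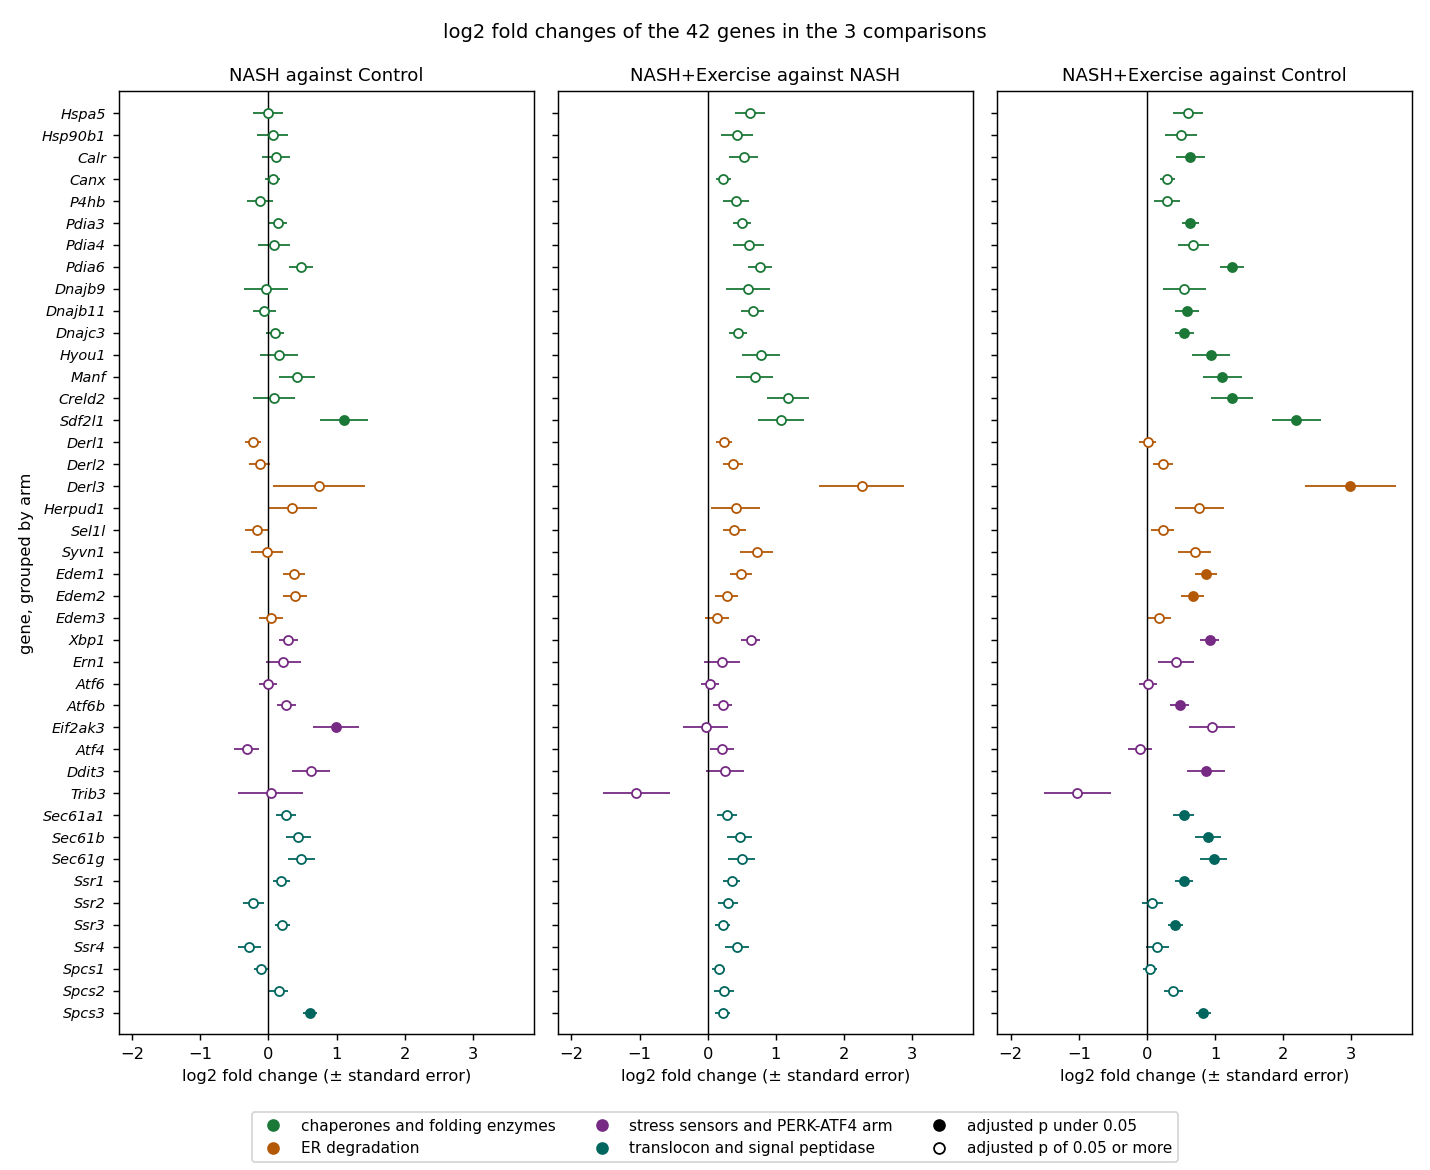
log2 fold change (horizontal axis, ± standard error) of each of the 42 genes in the 3 comparisons, colored by arm, with filled points at an adjusted p under 0.05. The left panel has 3 filled points and the middle panel 0, yet 40 of its 42 points lie right of 0, and the right panel has 21 filled points.

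Of the chaperones and folding enzymes, Hspa5 encodes BiP, the abundant chaperone that holds unfolded proteins and keeps the sensors inactive. Its level was 470, 634 and 493 CPM in Control, 583, 623 and 375 CPM in NASH, and 965, 679 and 783 CPM in NASH+Exercise. Control and NASH overlapped throughout, while each trained mouse was above each of the others. NASH differed from Control by a log2 fold change of -0.01 ± 0.22 (SE, adjusted p = 0.966, edgeR's quasi-likelihood test), and NASH+Exercise exceeded NASH by 0.62 ± 0.22 (adjusted p = 0.234) and Control by 0.60 ± 0.22 (adjusted p = 0.0675). The difference from Control lay close to the threshold, and it passed without Control 4 (log2 0.77, adjusted p = 0.0381), without NASH 20 (adjusted p = 0.0415), with only the 6 mice of the comparison (adjusted p = 0.0421), with library size alone (adjusted p = 0.0385) and in DESeq2 (adjusted p = 0.0492).

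Pdia6, a protein disulfide isomerase, had levels of 107, 166 and 106 CPM in Control, 182, 176 and 171 CPM in NASH, and 268, 308 and 327 CPM in NASH+Exercise. These are 3 steps without overlap. The log2 difference was 0.48 ± 0.18 in NASH against Control (adjusted p = 0.0577), 0.77 ± 0.18 in NASH+Exercise against NASH (adjusted p = 0.123) and 1.25 ± 0.18 in NASH+Exercise against Control (adjusted p = 0.000604), all by edgeR's quasi-likelihood test. Without Control 4 the first 2 of these differences passed the test, with adjusted p of 0.00263 and 0.0432. Reads of Atp6v1c2, which overlaps it on the opposite strand, may be included.

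Sdf2l1 is a partner of BiP and of ER DnaJ proteins. It stood at 7.94, 19.1 and 6.43 CPM in Control, 28.6, 24.8 and 18.8 CPM in NASH, and 44.1, 53.8 and 55.1 CPM in NASH+Exercise. Control 4 lay just above NASH 20, and the trained mice were well above all others. The gene rose in NASH against Control by 1.11 ± 0.35 (adjusted p = 0.0348) and in NASH+Exercise against Control by 2.19 ± 0.36 (adjusted p = 0.00185), and the difference of 1.08 ± 0.34 in NASH+Exercise against NASH missed the threshold (adjusted p = 0.208, edgeR's quasi-likelihood test). The NASH call was lost without Control 3, Control 29, NASH 5 or NASH 19 in turn, and without Control 4 the difference was 1.73 (adjusted p = 0.000292).

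Creld2, a folding factor of the ER lumen, had 23.2, 45.3 and 24.7 CPM in Control, 39.1, 37.0 and 22 CPM in NASH, and 80.6, 53.1 and 88.0 CPM in NASH+Exercise. Control and NASH were interleaved, and the lowest trained mouse exceeded the highest of both. NASH+Exercise exceeded NASH 2.26-fold (log2 1.18 ± 0.31, adjusted p = 0.151) and rose 2.38-fold over Control (adjusted p = 0.0161), by edgeR's quasi-likelihood test. That call was lost without Control 3, Control 29, NASH+Exercise 8 or NASH+Exercise 22.

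Manf, a secreted protein that protects cells under ER stress, showed 51.7, 88.7 and 52.1 CPM in Control, 96.8, 105 and 56.3 CPM in NASH, and 161, 113 and 143 CPM in NASH+Exercise. NASH 20 lay among the Control mice, and the trained mice lay above all others. It rose 2.17-fold in NASH+Exercise against Control (adjusted p = 0.0149, edgeR's quasi-likelihood test), and its difference from NASH was 0.69 ± 0.27 on the log2 scale (adjusted p = 0.274). The call against Control was lost without Control 3, Control 29 or NASH+Exercise 8. Its exons overlap those of Rbm15b on the same strand, so reads could be shared between them.

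Of the other 10 chaperones, 5 rose in NASH+Exercise against Control, beside 15.6% of all genes. Hyou1 (a large nucleotide exchange factor of BiP, log2 0.94 ± 0.28, adjusted p = 0.0329), Pdia3 (the isomerase of glycoproteins, 0.64 ± 0.13, adjusted p = 0.00455), Calr (the lectin calreticulin, 0.64 ± 0.21, adjusted p = 0.0431), Dnajb11 (0.59 ± 0.17, adjusted p = 0.0269) and Dnajc3 (0.55 ± 0.14, adjusted p = 0.0131), the last 2 being BiP co-chaperones, rose by edgeR's quasi-likelihood test. Of these calls, those of Pdia3 and Dnajc3 held whichever mouse was left out, and those of Hyou1, Calr and Dnajb11 were each lost without Control 3, Control 29, NASH+Exercise 18, NASH+Exercise 22 or NASH 19 and without 1 or more other mice. Canx (calnexin), P4hb, Pdia4, Dnajb9 and Hsp90b1 (GRP94) did not pass, with log2 differences of 0.29 to 0.68. Of these, Pdia4 (0.68 ± 0.23, adjusted p = 0.0507) passed without Control 4 (1.04, adjusted p = 0.00134), with library size alone (adjusted p = 0.0136), with upper quartile scaling (adjusted p = 0.0385), on log2(TPM + 1) (adjusted p = 0.0127) and in DESeq2 (adjusted p = 0.0414). P4hb (0.29 ± 0.19, adjusted p = 0.294) passed without Control 4 (0.53, adjusted p = 0.039), with library size alone (adjusted p = 0.0285) and on log2(TPM + 1) (adjusted p = 0.0167), and Canx passed with upper quartile scaling (adjusted p = 0.041) and in DESeq2 (adjusted p = 0.0292). The gene of Pdia3 is overlapped by Catsper2 on the opposite strand. In NASH+Exercise against NASH, 13 of the 15 chaperones did not overlap in the higher direction (9.16% of all genes), the exceptions being Hsp90b1 and Dnajb9. The 15 differences ran from 0.23 to 1.18.

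**Figure D3:**
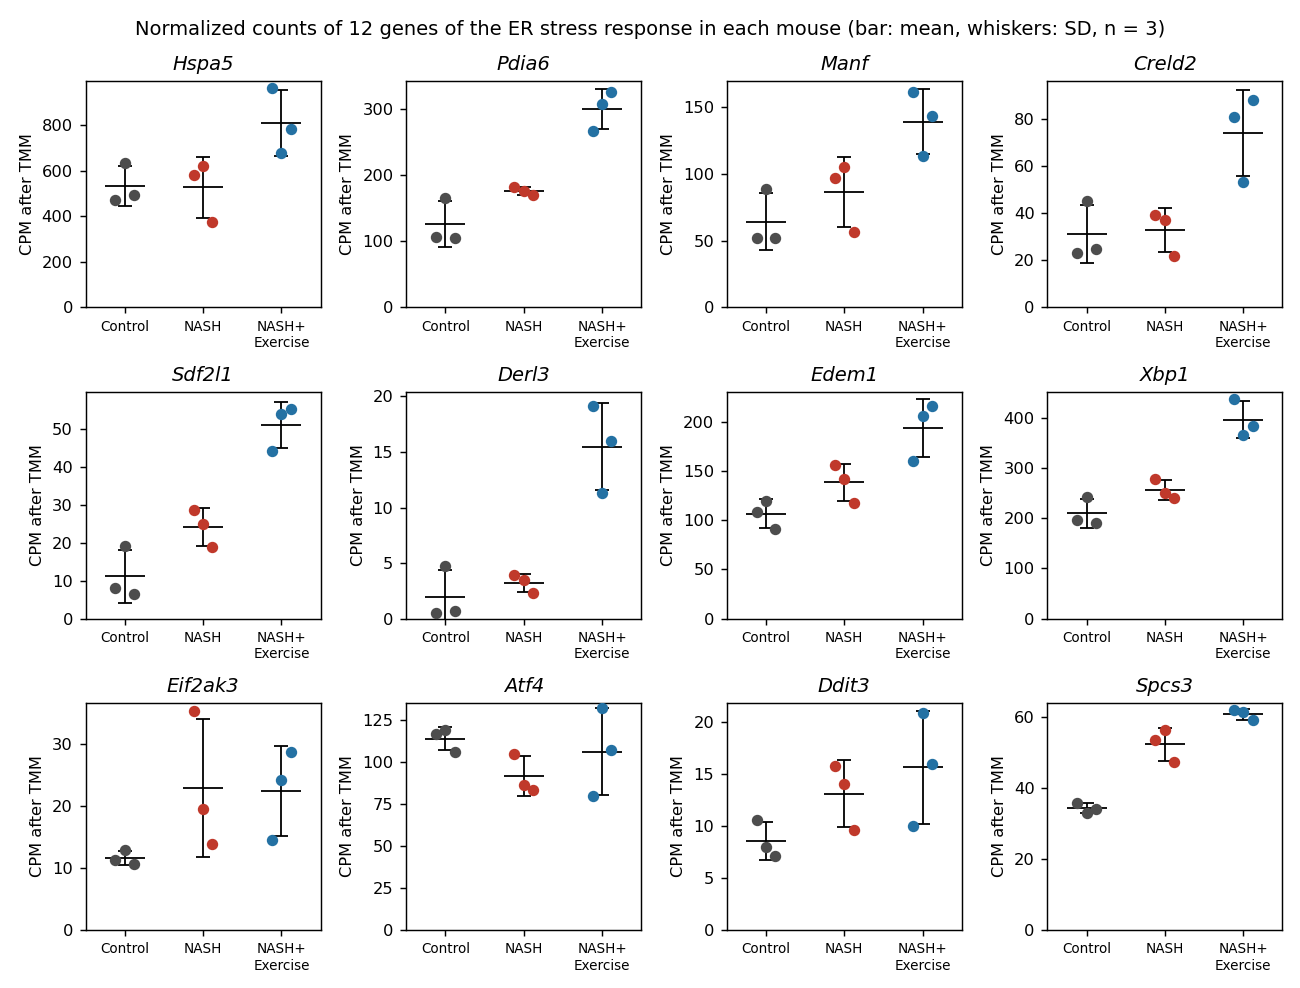
CPM after TMM scaling (vertical axes from 0) of 12 of the genes in each mouse (points) by group, with the mean and SD over 3 mice. Hspa5, Pdia6, Creld2, Sdf2l1, Derl3, Edem1 and Xbp1 show the trained mice above both other groups, whereas Atf4, Ddit3 and Eif2ak3 overlap between NASH and NASH+Exercise.

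Among the 9 genes of ER degradation, Derl3, a derlin that helps to move misfolded proteins out of the ER, had the widest range. It was at 0.483, 4.73 and 0.663 CPM in Control, 3.91, 3.45 and 2.34 CPM in NASH, and 19.1, 11.3 and 16 CPM in NASH+Exercise. Control 4 was at the level of the NASH mice, and the trained mice were far above both. NASH+Exercise exceeded NASH 4.77-fold (log2 2.26 ± 0.62, adjusted p = 0.165) and rose over Control by 2.99 ± 0.67 on the log2 scale (adjusted p = 0.0099, edgeR's quasi-likelihood test). The difference from NASH passed when only the 6 mice of that comparison were fitted (adjusted p = 0.0239) and when Control 4 was left out (adjusted p = 0.0209). Without Control 4, NASH also exceeded Control, by 2.47 (adjusted p = 0.00109).

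Edem1, a lectin that picks glycoproteins for disposal, had 109, 120 and 90.8 CPM in Control, 156, 142 and 118 CPM in NASH, and 160, 206 and 216 CPM in NASH+Exercise. NASH 20 lay within the Control range, and the lowest trained mouse was close to NASH 5. It rose in NASH+Exercise against Control by 0.87 ± 0.16 (adjusted p = 0.00313, edgeR's quasi-likelihood test).

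Its relative Edem2 had 39.7, 50 and 30.6 CPM in Control, 57.9, 52.3 and 47.6 CPM in NASH, and 62.3, 59.9 and 69.3 CPM in NASH+Exercise. Only NASH 20 and Control 4 crossed between groups. It too rose in NASH+Exercise against Control, by 0.67 ± 0.17 (adjusted p = 0.0144, edgeR's quasi-likelihood test), a call that was lost without Control 29. In NASH against Control it passed without Control 4 (log2 0.57, adjusted p = 0.0148).

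Syvn1, the ubiquitin ligase HRD1, had 126 ± 43.2 CPM in NASH and 207 ± 20.8 CPM in NASH+Exercise (mean ± SD, n = 3), with a log2 difference of 0.72 ± 0.24 (adjusted p = 0.213, edgeR's quasi-likelihood test). Its difference from Control was 0.70 ± 0.24 (adjusted p = 0.0536), which passed without NASH 20 (adjusted p = 0.0086), without NASH 5, with only the 6 mice of the comparison, in DESeq2 and under each other scaling. Reads of Mrpl49, on the opposite strand, may be included. In NASH+Exercise against NASH, Sel1l, the partner of Syvn1, differed by 0.39 ± 0.17 (adjusted p = 0.301, edgeR's quasi-likelihood test). Derl1, Derl2 and Edem3 differed from NASH by 0.14 to 0.37, Derl2 being overlapped by Mis12 on the opposite strand. Against Control, Derl2 passed without Control 4 (0.42, adjusted p = 0.0491) and with library size alone. Herpud1, a scaffold of the same ligase complex, was uneven in the trained group, at 410, 399 and 961 CPM, with mouse 22 far above the other two. Among the 9 genes, 6 did not overlap in the higher direction between NASH+Exercise and NASH (9.16% of all genes). In NASH+Exercise against Control 3 rose (15.6% of all genes).

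The sensors and the PERK-ATF4 arm did not move as 1 group. Xbp1, whose product activates chaperone and degradation genes, was at 197, 243 and 190 CPM in Control, 278, 251 and 241 CPM in NASH, and 439, 367 and 385 CPM in NASH+Exercise. The trained mice were all above the other mice, and NASH 20 alone fell inside the Control range. Xbp1 rose in NASH+Exercise against Control by 0.92 ± 0.14 (adjusted p = 0.000927), and against NASH the difference of 0.63 ± 0.14 had the smallest adjusted p of all members (0.122, edgeR's quasi-likelihood test). Without Control 4, Xbp1 passed in NASH against Control too (0.39, adjusted p = 0.0425).

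The kinase PERK, Eif2ak3, was at 11.3, 12.9 and 10.6 CPM in Control, 35.4, 19.5 and 13.9 CPM in NASH, and 14.5, 24.2 and 28.8 CPM in NASH+Exercise. All 6 mice on the Ath diet were above all Control mice, and the diet groups overlapped widely. It rose in NASH by 0.99 ± 0.34 (adjusted p = 0.0485), and NASH+Exercise differed from NASH by -0.03 ± 0.33 (adjusted p = 0.976, edgeR's quasi-likelihood test). Without NASH 5 the difference of NASH from Control came to 0.53, and that of NASH+Exercise from NASH to 0.43. The call of NASH against Control was lost without NASH 5, and also without Control 3, Control 4, Control 29, NASH 19 or NASH+Exercise 18. NASH+Exercise differed from Control by 0.96 ± 0.34 (adjusted p = 0.0705), which passed without NASH 20 (adjusted p = 0.0409), NASH 5 or NASH+Exercise 8, with only the 6 mice, with library size alone and in DESeq2.

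Atf4 mRNA showed 117, 119 and 106 CPM in Control, 105, 86.6 and 83.3 CPM in NASH, and 79.7, 132 and 107 CPM in NASH+Exercise. NASH lay just under Control, and the trained mice spanned both. The log2 difference was -0.32 ± 0.18 in NASH against Control (adjusted p = 0.19) and 0.21 ± 0.18 in NASH+Exercise against NASH (adjusted p = 0.604, edgeR's quasi-likelihood test). ATF4 is controlled mainly at translation, which RNA levels do not show.

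Ddit3, the stress factor CHOP, had 10.6, 7.95 and 7.09 CPM in Control, 15.8, 14 and 9.56 CPM in NASH, and 10, 20.9 and 16 CPM in NASH+Exercise. The lowest mouse of either Ath diet group lay within the Control range. It rose in NASH+Exercise against Control by 0.87 ± 0.28 (adjusted p = 0.0466, edgeR's quasi-likelihood test), a call that was lost without Control 4, Control 29, NASH 5, NASH 19, NASH+Exercise 18 or NASH+Exercise 22, and its exons overlap those of Mars on the opposite strand.

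Trib3, a pseudokinase downstream of ATF4 and CHOP, had 3.54, 6.45 and 13.3 CPM in Control, 8.52, 6.48 and 8.84 CPM in NASH, and 6.42, 2.45 and 2.58 CPM in NASH+Exercise. Here the trained mice were the low ones, although mouse 8 was level with NASH 19. The log2 difference of NASH+Exercise from NASH was -1.05 ± 0.49 (adjusted p = 0.345, edgeR's quasi-likelihood test), the only member whose mice did not overlap in the lower direction. Ern1, Atf6 and Atf6b differed from NASH by 0.21, 0.03 and 0.22, and of the 3 only Atf6b rose against Control (0.48 ± 0.14, adjusted p = 0.0264, lost without any of 6 mice in turn). Without Control 4, Atf6b passed in NASH against Control as well (0.41, adjusted p = 0.0246).

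**Figure D4:**
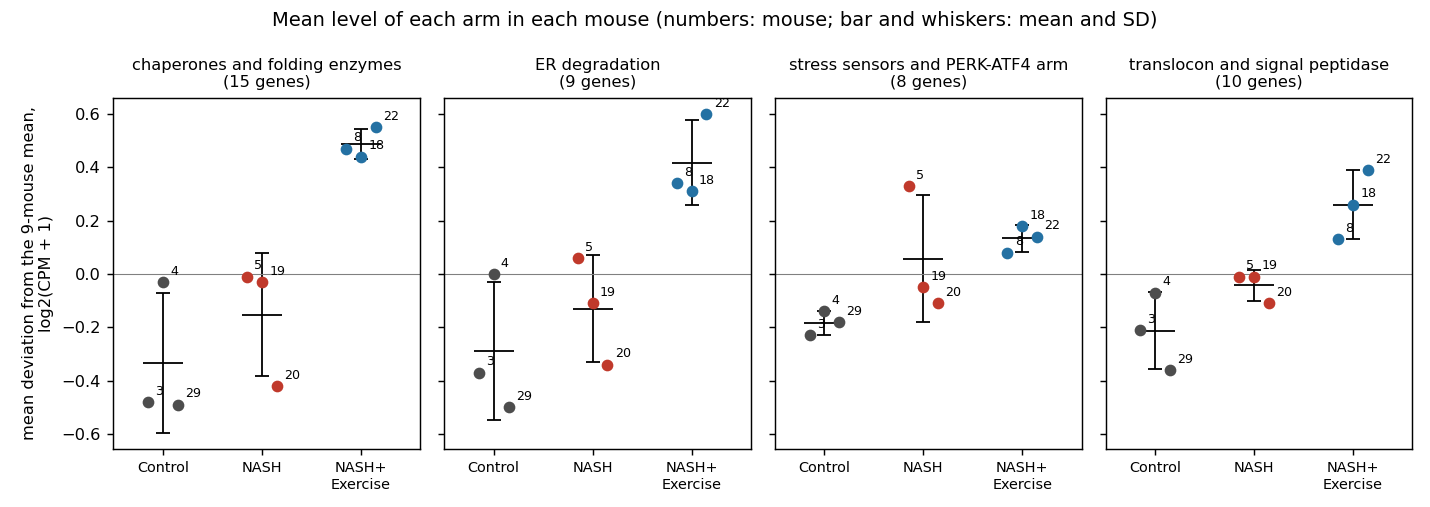
Mean over the genes of each arm of the deviation from the 9-mouse mean on the log2(CPM + 1) scale (vertical axis) for each mouse (points, numbered), by group, with mean and SD. For the chaperones the trained mice lie at 0.44 to 0.55 and the NASH mice at -0.42 to -0.01, and for the sensors NASH 5, at 0.33, lies above all trained mice.

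The translocon (Sec61a1, Sec61b and Sec61g), the translocon-associated Ssr1 to Ssr4 and the signal peptidase subunits Spcs1 to Spcs3 bring nascent chains into the ER and trim them. Spcs3 had 35.9, 33.1 and 34.1 CPM in Control, 53.6, 56.4 and 47.3 CPM in NASH, and 62.0, 61.6 and 59.1 CPM in NASH+Exercise. The 3 groups did not overlap. It rose in NASH against Control by 0.61 ± 0.11 (adjusted p = 0.00137) and its difference of 0.22 ± 0.11 in NASH+Exercise against NASH did not pass (adjusted p = 0.359, edgeR's quasi-likelihood test). The other signal peptidase subunits differed from Control by -0.11 ± 0.10 (Spcs1, overlapped by Glt8d1 on the opposite strand) and 0.15 ± 0.14 (Spcs2) in NASH. Spcs2 missed the threshold in NASH+Exercise against Control (0.39 ± 0.14, adjusted p = 0.0595) and passed without Control 4 (0.51, adjusted p = 0.0235), with library size alone, with upper quartile scaling and on log2(TPM + 1).

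Sec61b, a small subunit of the channel, had 33.2, 31.5 and 23.5 CPM in Control, 38.9, 42.5 and 37.8 CPM in NASH, and 41.5, 55.8 and 67.5 CPM in NASH+Exercise. Sec61g, the other small subunit, had 5.53, 7.06 and 4.49 CPM in Control, 8.06, 7.68 and 8.03 CPM in NASH, and 9.47, 10.1 and 14.1 CPM in NASH+Exercise. For both genes every NASH mouse was above every Control mouse, and for Sec61g every trained mouse was above every NASH mouse too. Both rose in NASH+Exercise against Control, by 0.90 ± 0.19 and 0.98 ± 0.20 (adjusted p of 0.00497 and 0.00543, edgeR's quasi-likelihood test). In NASH against Control, Sec61g passed without Control 4 (0.65, adjusted p = 0.0383). Of the 10 genes, 6 rose in NASH+Exercise against Control, beside 15.6% of all genes. Besides Sec61b and Sec61g, these were Sec61a1, Ssr1, Ssr3 and Spcs3. The call of Sec61a1 was lost without Control 3, Control 29, NASH+Exercise 18 or NASH+Exercise 22, and that of Ssr3 without Control 29 or NASH+Exercise 18. Of the 10 genes, 8 did not overlap in the higher direction between NASH+Exercise and NASH (9.16% of all genes).

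On TPM, the scale corrected for length on which genes can be compared, P4hb, Calr, Hspa5 and Herpud1 were the most abundant members in Control, at 615 ± 73.6, 498 ± 92.8, 306 ± 26.8 and 268 ± 38.3 TPM (SD, n = 3). The mice of P4hb (541 to 688 TPM) and Calr (406 to 591 TPM) overlapped. Derl3, Eif2ak3 and Trib3 were the lowest, at 2 ± 2.27, 4.13 ± 0.272 and 5.82 ± 4.44 TPM, and among them only Eif2ak3 was even between mice. Together the 42 members took 0.358% to 0.399% of TPM in Control mice. Their share was 0.479% to 0.61% in NASH mice and 0.601% to 0.661% in trained mice.

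The TPM scale gave a different picture of the diet and a narrower one of training. NASH mice lay above Control mice without overlap for 24 of the 42 members, but 50.2% of all genes did so on this scale. NASH+Exercise lay above NASH without overlap for 8 members (Calr, Pdia6, Dnajb11, Creld2, Sdf2l1, Derl3, Syvn1 and Xbp1) and below for Trib3, against 1.26% and 37.6% of all genes. Relative to the median of all genes in the same fit, the chaperones were higher in NASH+Exercise than in NASH by 0.63 on CPM after TMM, 0.63 with library size alone and 0.60 on log2(TPM + 1). The translocon was higher by 0.32, 0.31 and 0.25, and the sensors by 0.24, 0.24 and 0.16. Without that reference the translocon and sensor medians fell to -0.01 and -0.10 on TPM, so their direction against NASH depended on the scaling.

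The 9 genes with an ERSE had a median log2 difference of 0.62 in NASH+Exercise against NASH and 0.08 in NASH against Control, and all 9 were higher in the first. The 26 members with a promoter entry and no ERSE had medians of 0.38 and 0.17. Of 28 other genes with the element, 10 were tested, and their medians were 0.11 and 0.47. These sets are small and the first was drawn from the listed members, so no difference between them was tested.

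Further genes of the same pathway were taken from lists drawn up from general knowledge, also with earlier results known. Of 35 other ER folding and redox genes tested, 9 rose and 3 fell in NASH+Exercise against Control, and 3 rose and 4 fell in NASH against Control. Over all genes 15.6% rose and 9.58% fell in the first comparison, and 21.2% and 14.4% in the second. With library size alone the list's counts were 14 higher and 2 lower in the first and 12 and 2 in the second. Over all genes that scale gave 18.3% and 5.96% in the first and 33% and 4.65% in the second. On log2(TPM + 1) the list's counts were 15 and 2 in the first and 17 and 2 in the second. There 14.8% and 5.73% of all genes were called in the first and 37.0% and 3.85% in the second. Fkbp11, a prolyl isomerase of secretory cells, stood at 3.17, 4.89 and 3.62 CPM in Control, 6.69, 8.58 and 8.25 CPM in NASH, and 9.99, 8.64 and 15 CPM in NASH+Exercise, 3 ranges that did not overlap. Dnajc10, a disulfide reductase, rose in NASH by 1.03 ± 0.16 (adjusted p = 0.00066), whereas Creld1 and Tor1a, an ATPase of the ER lumen, both fell by 0.95 on the log2 scale (adjusted p of 0.00151 and 0.000324, edgeR's quasi-likelihood test). These 2 falls came to -0.60 and -0.59 with library size alone and -0.51 and -0.50 on log2(TPM + 1), all still called.

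The 28 other ER degradation genes lay lower after TMM. By the same test 0 rose and 12 fell in NASH against Control, and 0 rose and 5 fell in NASH+Exercise against Control, with median differences of -0.23 and -0.15, where 14.4% and 9.58% of all genes fell. With library size alone the first median was 0.13, with 4 genes higher and 3 lower (33% and 4.65% of all genes). On log2(TPM + 1) it was 0.20, with 8 higher and 1 lower (37.0% and 3.85%). The direction of the list thus depended on the scaling. The counts of the second comparison became 5 higher and 3 lower with library size alone (18.3% and 5.96% of all genes). On log2(TPM + 1) they were 3 and 3 (14.8% and 5.73%). Rad23b, which delivers ubiquitinated proteins to the proteasome, fell from 243, 255 and 243 CPM in Control to 149, 145 and 148 CPM in NASH (log2 -0.74 ± 0.11, adjusted p = 0.000518, edgeR's quasi-likelihood test). Marchf6, an ER ubiquitin ligase, fell by 0.73 on the log2 scale (adjusted p = 0.00039). With library size alone these falls were -0.39 and -0.38, and on log2(TPM + 1) they were -0.30 and -0.28, where Marchf6 no longer passed (adjusted p = 0.0887). At the upper end of the list, Dnajb14 and Man1b1 differed by 0.14 and 0.07.

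Of the 35 ATF4 and CHOP targets and genes of eIF2alpha control that were tested, 10 rose and 9 fell in NASH against Control, beside 21.2% and 14.4% of all genes. Both other scales gave 17 higher and 3 lower. The shares over all genes were 33% and 4.65% with library size alone, and 37.0% and 3.85% on log2(TPM + 1). Chac1, which degrades glutathione, was at 1.82, 1.45 and 0.816 CPM in Control, 24.4, 2.87 and 6.50 CPM in NASH, and 9.17, 11.8 and 17.8 CPM in NASH+Exercise. All mice on the Ath diet were above all Control mice, over a wide range. Slc7a11, the cystine carrier, had at most 0.0537 CPM in a Control mouse, 1.25 to 2.25 CPM in NASH and 0.39 to 1.13 CPM in NASH+Exercise, too few reads in Control for a fold. Cth, which makes cysteine, fell by 1.66 on the log2 scale in NASH (adjusted p = 2.51e-05).

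Fgf21, a liver hormone that ATF4 can induce, was lower in NASH+Exercise than in NASH. After TMM all 15 chaperones were higher in that comparison, though 0 passed edgeR's test. Fgf21 had 50, 35.3 and 43.7 CPM in Control, 10.7, 6.67 and 11.2 CPM in NASH, and 1.96, 2.31 and 1.02 CPM in NASH+Exercise. The groups formed 3 descending steps without overlap. It fell in NASH by 2.17 ± 0.26 on the log2 scale (adjusted p = 0.000149) and again in NASH+Exercise against NASH by 2.42 ± 0.29 (adjusted p = 0.0405, edgeR's quasi-likelihood test), the only gene of the 5 further lists called in that comparison. That call was lost without any of Control 3, NASH 5, NASH 20, NASH+Exercise 18 or NASH+Exercise 22.

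Among 21 genes that process or partner the sensors, 8 rose and 3 fell in NASH against Control, beside 21.2% and 14.4% of all genes. On both other scales 12 were higher and 1 lower. The shares over all genes were 33% and 4.65% with library size alone, and 37.0% and 3.85% on log2(TPM + 1). Casp12, an ER-associated caspase, was at 0.537, 0.445 and 1.17 CPM in Control, 6.40, 21.3 and 8.42 CPM in NASH, and 9.95, 7.84 and 4 CPM in NASH+Exercise. The survival gene Bcl2 rose in NASH by 1.75 ± 0.32 (adjusted p = 0.00171), and by 0.83 on log2(TPM + 1). The ER-bound factor Creb3l3, a liver relative of ATF6, fell by 1.01 on the log2 scale (adjusted p = 0.000747), or by 0.66 with library size alone and 0.58 on log2(TPM + 1). Creb3 fell by 0.38 (adjusted p = 0.0318), a difference that came to -0.03 with library size alone and 0.05 on log2(TPM + 1). These adjusted p are of edgeR's quasi-likelihood test after TMM, and the values on log2(TPM + 1) are from limma.

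Of 26 other translocation and N-glycosylation genes, 2 rose (Tusc3 and Ostc, both of the oligosaccharyltransferase) and 1 fell (Stt3b, a catalytic subunit of the same enzyme) in NASH against Control, where 21.2% and 14.4% of all genes did. With library size alone 14 rose and 0 fell (33% and 4.65% of all genes), and the difference of Stt3b came to 0.00. Against Control, 9 rose and 2 fell in the trained mice (15.6% and 9.58% of all genes), with Tram2, a translocon-associated protein, falling by 0.92 on the log2 scale (adjusted p = 0.0278). On both other scales 12 rose and 0 fell, and Tram2 no longer passed (adjusted p of 0.0743 with library size alone and 0.0724 on log2(TPM + 1)). Over all genes 18.3% rose and 5.96% fell on the first of these scales, and 14.8% and 5.73% on the second. Over the 5 lists 23 genes rose and 29 fell in NASH against Control, beside 21.2% and 14.4% of all genes. The split became 59 and 9 with library size alone, beside 33% and 4.65% of all genes. On log2(TPM + 1) it was 70 and 7, beside 37.0% and 3.85%.

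**Figure D5:**
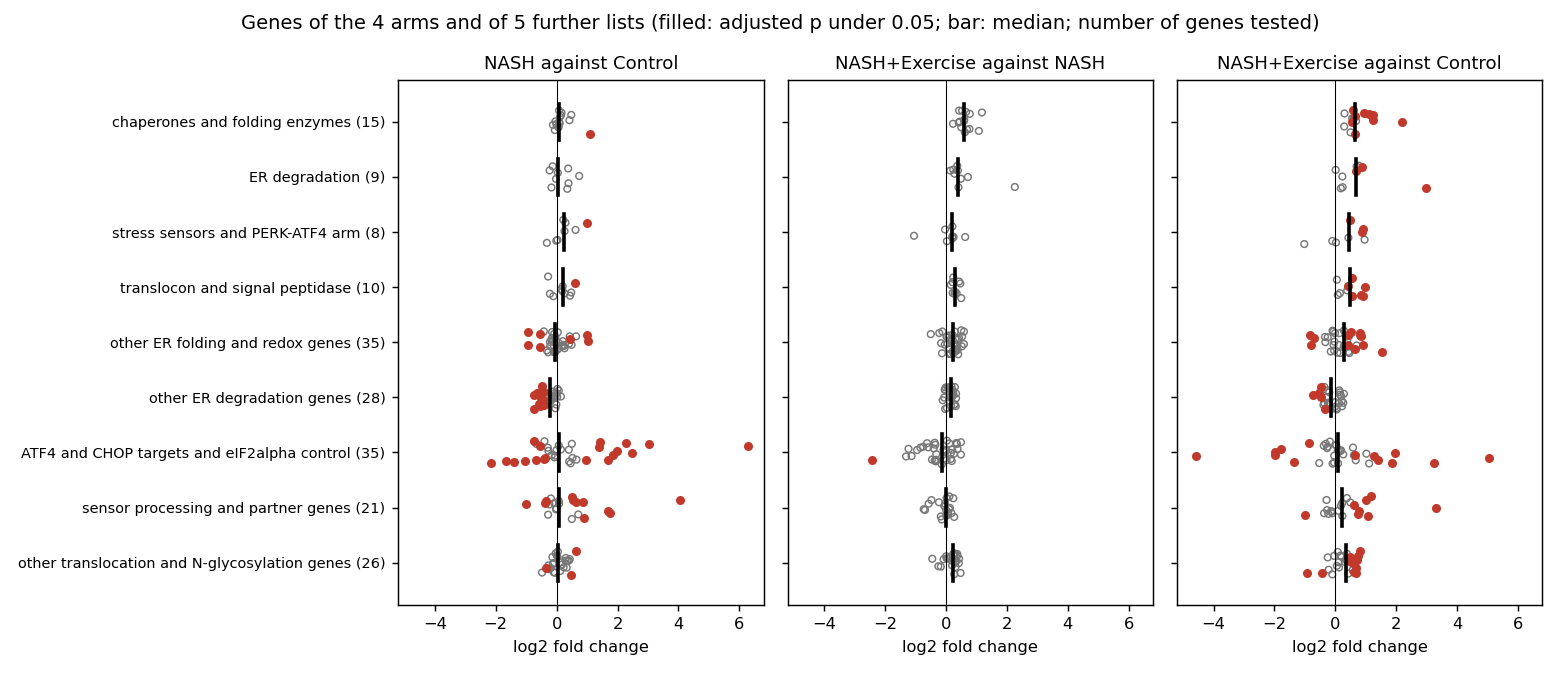
log2 fold change (horizontal axis) of each tested gene of the 4 arms and the 5 further lists in the 3 comparisons, filled at an adjusted p under 0.05, with the median as a bar and the number of genes in parentheses. Of the 28 other ER degradation genes, 5 lie right of 0 in the left panel, with the median at -0.23, and the chaperones lie right of 0 in the middle and right panels. The rightmost point of the left panel, Slc7a11, rests on almost no reads in Control.

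Markers of other liver cells moved between the same groups. The summed level of 10 macrophage markers was 128 to 223 CPM for Control mice, 1350 to 1370 CPM for NASH mice and 1040 to 1170 CPM for trained mice. All 10 rose in both comparisons with Control, where 21.2% (NASH) and 15.6% (NASH+Exercise) of all genes did. For 8 neutrophil markers the sums were 11.3 to 16, 52.0 to 59.0 and 36.0 to 48.3 CPM, and for 10 stellate cell and fibroblast markers 141 to 273, 420 to 635 and 268 to 378 CPM. Between NASH+Exercise and NASH these 3 sums were lower without overlap, while most of the 42 members were higher.

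The 7 cholangiocyte markers summed to 36.3 to 44.9, 109 to 398 and 76.6 to 104 CPM. On average Spp1 was the largest part of this sum, with means of 20.1, 171 and 62.5 CPM, and it was at 341 CPM in NASH 19. The sums of sinusoidal endothelium overlapped between groups (88.9 to 163, 133 to 218 and 139 to 172 CPM). The 10 hepatocyte markers, Alb among them, summed to 139000 to 162000, 93600 to 128000 and 107000 to 134000 CPM. None of the listed markers was at 0 in all mice. Their part in the results was not tested, and in whole liver fewer cells of a type and less RNA per cell cannot be told apart.

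Plasma and pancreatic acinar cells use many of the same ER genes. The 9 plasma and B cell markers listed summed to 6.06 to 9.39 CPM for Control mice, 9.24 to 16 CPM for NASH mice and 5.17 to 11.3 CPM for trained mice, so the ranges overlapped. Of the 8 that were tested, 2 rose in NASH against Control, beside 21.2% of all genes. In NASH+Exercise against NASH 0 of the 8 had a positive difference, beside 45.1% of all genes. Mzb1, a plasma cell chaperone, was under 1 CPM in every mouse, though each NASH mouse was above each Control mouse. The part of these cells in the results was not tested. Only 2 of 10 acinar markers were listed, and they summed to at most 1.36 CPM.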

How the data were processed

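Per the labels, libraries were made from liver mRNA. The authors deposited, for each gene and mouse, estimated counts that are not normalized, with FPKM and TPM values, and their processing notes name HISAT2 2.1.0, Bowtie2 2.2.5, RSEM 1.2.8 and the build GRCm38.p6. Estimated counts were rounded (29.0% to 32.8% were not whole), FPKM was not used. Genes with at least 10 counts by filterByExpr (total 15) were fitted in edgeR 4.0.16 (R 4.3.3) with TMM scaling, a robust quasi-likelihood model of all 9 mice, group as the only term and 6 residual degrees of freedom. limma 3.58.1 on log2(TPM + 1) of the deposited TPM and DESeq2 1.42.0 were alternatives, and fits were tested on simulated data. Symbols, coordinates and promoters came from RefSeq.

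Members and lists were chosen with earlier results of these data known. Members named with values in every mouse were, per arm, the 3 with the largest change in NASH against Control and the 1 with the largest in NASH+Exercise against NASH, with Hspa5, Xbp1, Atf4 and Ddit3. From each further list, the 2 genes at either end in NASH against Control were named, with Fgf21 and Mzb1.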

Additional observations from a re-analysis of the deposited data

How the results depend on the processing

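No paired analysis was possible because the numbers are those of single mice and no number occurs in more than 1 group. In NASH against Control, the count of members called was 3, and it was 19 with library size alone, 24 on log2(TPM + 1), 1 without a filter on low counts and 1 to 8 with a mouse left out (8 without Control 4, 1 without Control 3, Control 29, NASH 5 or NASH 19). With the 2-fold limit it was 1, and 2 with library size or upper quartile scaling, 0 without the filter or with only 6 mice, 3 on TPM and 0 to 2 with a mouse left out. The medians of chaperones, ER degradation, sensors and translocon became 0.46, 0.38, 0.59 and 0.55 with library size and 0.54, 0.44, 0.60 and 0.62 on TPM, and with a mouse left out they ran from -0.01 to 0.22, -0.12 to 0.23, 0.10 to 0.31 and 0.11 to 0.24. In NASH+Exercise against NASH, 1 member was called with only 6 mice, 6 with DESeq2 and 0 to 2 with a mouse left out (2 without Control 4), and with the 2-fold limit 1, 1 and 0 to 1. Its medians for sensors and translocon were 0.01 and 0.08 with library size and reversed to -0.10 and -0.01 on TPM, where chaperones and ER degradation came to 0.34 and 0.05 and 25 members had a positive difference in place of 40. With a mouse left out the 4 medians were 0.48 to 0.72, 0.29 to 0.55, 0.07 to 0.37 and 0.24 to 0.35. In NASH+Exercise against Control, 11 to 25 members were called with a mouse left out (11 without Control 29), and 12 with library size, 10 on TPM and 3 to 9 with a mouse left out passed the 2-fold limit, in place of 5. The medians of sensors and translocon were 0.61 and 0.62 with library size, and with a mouse left out the medians were 0.53 to 0.85 for chaperones (0.85 without Control 4), 0.22 to 0.82 for ER degradation (0.22 without NASH+Exercise 22), 0.35 to 0.54 for sensors and 0.42 to 0.53 for the translocon. Calls of further pathway genes, whose alternatives were chosen after seeing the data, were 35 to 51 with a mouse left out in place of 52 (NASH against Control), 0 to 1, and 2 with DESeq2, in place of 1 (NASH+Exercise against NASH), and 32 to 57 in place of 49 (NASH+Exercise against Control, 32 without Control 3 or Control 29). The scaling shifts follow the shift of the median of all genes, and the cause of the other changes was not tested. For the 16 members named by rule, 627 values kept their direction and side of the threshold, 39 newly passed it, 29 no longer did, and 25 changed direction, none of them called in either fit. Hspa5 (-0.01 in NASH against Control) came to 0.36 with library size, 0.05 with upper quartile scaling, 0.40 on TPM and -0.19 to 0.18 with a mouse left out, and Atf4 (-0.32) to 0.04 with library size and 0.12 on TPM. Creld2 (0.08) and Trib3 (0.03) ran from -0.11 to 0.44 and from -0.32 to 0.62 with a mouse left out in that comparison. Against NASH, the trained mice had -0.04, -0.11, -0.09 and -0.08 for Edem2, Atf4, Ddit3 and Spcs3 on TPM, and with a mouse left out Ddit3 ran from -0.01 to 0.49 and Eif2ak3 from -0.29 to 0.43. Against Control, Atf4 (-0.10) had 0.04 with library size, 0.01 on TPM and -0.29 to 0.07 with a mouse left out. With 3 mice per group and intervals of this width, a member that missed the threshold is not shown to be level.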
